A study of Neurospora crassa with 54 samples.

Results

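Silent chromatin in the filamentous fungus Neurospora crassa carries methylation of histone H3 at lysine 27, which is made by SET-7, the catalytic subunit of the Polycomb repressive complex PRC2. The mark covers blocks of poorly transcribed genes, many of them near the chromosome ends, and some of these genes are transcribed when SET-7 is missing. H2A.Z is a histone variant that replaces H2A in some nucleosomes, and the study asked whether it is needed for the normal pattern of that methylation. The genes described here lie away from the chromosome ends and were more highly expressed in the strain without set-7 than in the wild type. They number 53 of the 10398 genes in the count table.

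The 53 genes were chosen by their values in the ∆set-7 and Wild type libraries. A gene was taken if its midpoint lay over 200 kb from both ends of its chromosome, if its mean in ∆set-7 was at least 1 CPM (counts scaled to a common library total), and if its lowest ∆set-7 value was at least 2 times its highest Wild type value. Of the 9614 internal genes, 61 met these conditions, and 8 of them were left out by the rule, 2 of them beside set-7 on chromosome I. The difference between ∆set-7 and Wild type is therefore given below as a description, without a test. Near the ratio threshold, NCU07626, NCU07073 and NCU09061 were just inside with ratios of 2.001, 2.003 and 2.005. NCU14076, NCU05089 and NCU05080 were just outside with ratios of 1.968, 1.967 and 1.965.

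RNA-seq counts were available for 12 libraries from 4 strains with 3 replicates each, namely Wild type, ∆hH2Az, which lacks the H2A.Z gene, ∆set-7, and ∆hH2Az;∆set-7, called the double deletion strain below. All were mycelium from 12 h cultures in VMM (the labels' name for the medium) with 2% glucose, kept at 30 °C under constant light. The labels give 1 strain identifier per genotype and do not say whether the replicates were separate cultures, so p-values measure only the spread between these samples. In every strain replicates 1 and 2 carry the tag 920 and replicate 3 carries another tag, and the labels do not say what the tags are. The 42 chromatin immunoprecipitation samples were not analysed here.

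Library totals ranged from 13581416 to 19720473 counts, so that 1 read was worth 0.0507 to 0.0736 CPM. A library with no read of a gene allowed a level of up to 0.152 to 0.221 CPM (3 reads, counting error only), and 18 of the members' library values were at 0. set-7 followed the labels, with 7.29 to 8.06 CPM in Wild type, 8.82 to 13.5 in ∆hH2Az, 2.90 to 3.54 in ∆set-7 and 3.28 to 5.53 in the double deletion strain. hH2Az was at 57.3 to 76.7 CPM in Wild type and at 17.7 to 41.3 CPM in the 6 libraries labelled as lacking it. Among those 6, it was at 17.7, 19.3 and 35.2 CPM in ∆hH2Az replicates 1 to 3 and at 40.6, 41.3 and 24.2 CPM in the double deletion replicates. Replicate 3 of each of these strains stood apart from replicates 1 and 2 at many genes, and the main results on these strains are given with and without it. The actin gene act had strain means of 1440 to 1568 CPM. Genes of mating and of conidiation varied: ccg-4, a pheromone precursor gene, did not exceed a strain mean of 0.186 CPM. The mating and sexual development gene asd-1 had strain means of 107 to 287 CPM and the conidiation gene con-8 of 42.6 to 622 CPM. These levels do not serve as a check of the mycelial label.

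In the wild type the members were expressed at low levels. Their median level was 0.867 CPM, against 17.3 CPM for internal genes with at least 1 Wild type read, and 29 of the 53 were below 1 CPM. Per kilobase of exon the medians were 0.776 and 6.89 CPM. Only NCU04887 and NCU07210 exceeded 10 CPM in the wild type. In ∆set-7 the median of the members was 4.82 CPM, 38 members were between 1 and 10 CPM and 15 were at 10 CPM or more. The ratio of the mean levels, ∆set-7 over Wild type, ranged from 2.52 to 222 with a median of 6.46. As the samples were bulk mycelium, more cells expressing a gene and more RNA per cell cannot be told apart.

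**Figure D1:**
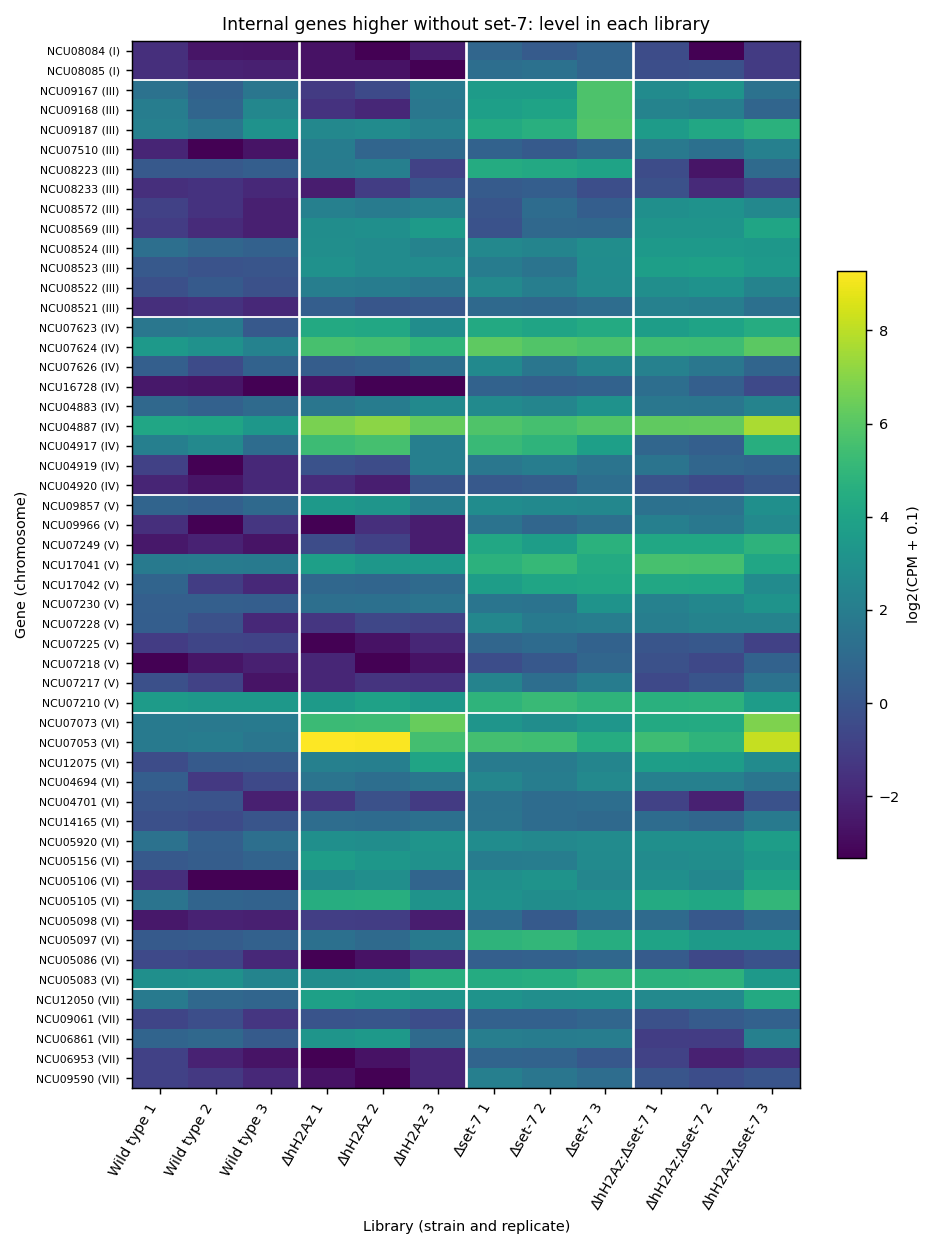
Level of each of the 53 genes in each of the 12 libraries, as log2 of CPM + 0.1, with genes in order along chromosomes I to VII and white lines between strains and chromosomes. The Wild type columns are dark for most genes and the ∆set-7 columns lighter, as the choice of genes requires, while the ∆hH2Az and double deletion columns vary from gene to gene and, in both, replicate 3 differs from replicates 1 and 2 at genes such as NCU07053.

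Although the rule asked only for a distance over 200 kb, all 53 members lay within 911.5 kb of a chromosome end, with a median distance of 370.6 kb. Of the 9614 internal genes, 70.4% lay over 1000 kb from an end. The range from 200 to 500 kb held 39 members (73.6%) and 11.5% of internal genes. This limit depended on the threshold: with a ratio of at least 1.5 the rule took 110 genes, of which 15 lay beyond 1000 kb, and with any 1 of the 6 libraries it used left out it took 58 to 75, of which 2 to 9 lay beyond 1000 kb. With a ratio of at least 3 it took 25 genes, none beyond 911.5 kb.

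**Figure D2:**
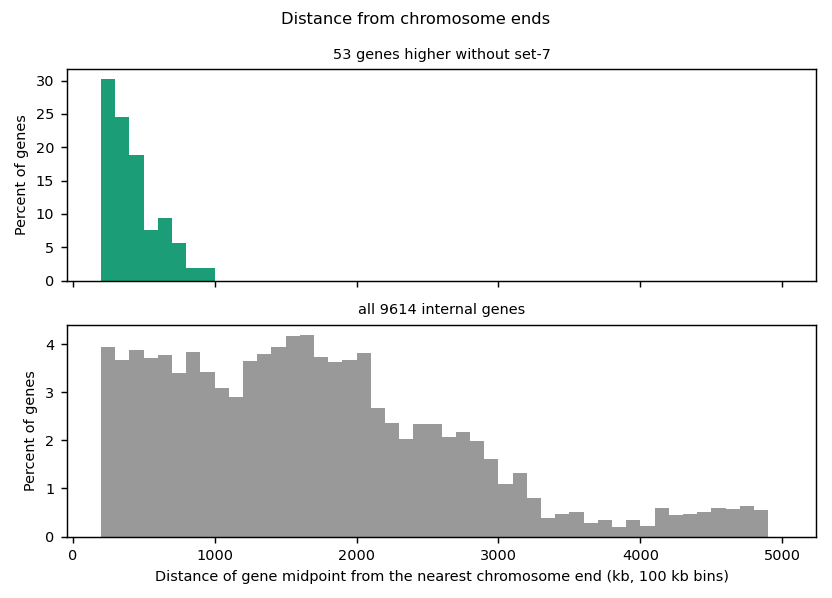
Distance of the gene midpoint from the nearest chromosome end in kb, in bins of 100 kb, as the percentage of the 53 genes (top) and of all 9614 internal genes (bottom; the vertical scales differ). The 53 genes pile up toward 200 kb and end at 911.5 kb, whereas internal genes as a whole reach 4885 kb.

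Chromosome VI held 14 members (6 in the left arm and 8 in the right), chromosome III held 12 (3 and 9), chromosome V held 11, all at the right, chromosome IV held 9, chromosome VII 5 and chromosome I 2, all at the left. Chromosome II held none, although 13 genes within 200 kb of its ends met the same thresholds. As a share of internal genes, members made up 1.47% on chromosome VI and 0.0841% on chromosome I. Of the members, 52 were annotated as protein-coding and NCU14165 as a non-coding RNA. Their median exon length was 1401 bases against 1963 for internal protein-coding genes. A single member, NCU09857, overlapped another annotated gene (1.89%, against 23.3% of internal genes). Reads were counted without strand, so sense and antisense transcription cannot be told apart, at NCU09857 or at any other member. Only 3 members (5.66%) had a gene symbol, against 11.0% of internal genes. The other 50 carry locus identifiers alone and are given no function here.

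The 3 members with symbols are a sirtuin and 2 glycoside hydrolases. nst-7 (NCU07624, chromosome IV from 312617 to 314578, plus strand, NC12 assembly), of the sirtuin family of NAD-dependent protein deacetylases, was the member of highest mean level in ∆set-7. It had 11.0, 8.06 and 4.73 CPM in the 3 Wild type replicates and 70.6, 58.5 and 51.2 CPM in ∆set-7. In ∆hH2Az it had 48.4, 44.1 and 30.2 CPM and in the double deletion strain 42.9, 41.6 and 69.7 CPM. All 9 libraries of the deletion strains were above the Wild type libraries, and the ∆hH2Az and double deletion libraries overlapped.

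gh18-4 (NCU04883, chromosome IV from 617561 to 619608, minus strand) belongs to glycoside hydrolase family 18, the family of chitinases. It had 1.84, 1.42 and 1.95 CPM in Wild type, 6.45, 5.18 and 8.51 in ∆set-7, 2.99, 3.81 and 6.28 in ∆hH2Az, and 3.13, 2.97 and 4.80 in the double deletion strain. gh11-2 (NCU07225, chromosome V from 6198659 to 6199980, minus strand) belongs to family 11, the family of xylanases. It had 0.368, 0.516 and 0.473 CPM in Wild type and 1.71, 2.05 and 1.44 in ∆set-7. In ∆hH2Az it was nearly silent, with 4 reads over the 3 libraries (0, 0.0552 and 0.156 CPM), and in the double deletion strain it had 0.912, 0.991 and 0.437 CPM. The chitinase-family gene thus overlapped between the 2 strains lacking hH2Az, whereas the xylanase-family gene did not.

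The next 7 members by mean ∆set-7 level carry locus identifiers alone. NCU04887 (chromosome IV from 636406 to 638705) had 53.8 ± 5.51 CPM in ∆set-7 (SD, n = 3) and 14.5 ± 3.78 in Wild type (SD, n = 3). NCU07053 (chromosome VI from 348239 to 349971) had 37.0 ± 13.1 and 3.40 ± 0.394 CPM, and NCU09187 (chromosome III from 287851 to 290825) had 34.2 ± 21.1 and 5.30 ± 2.82 CPM (SD, n = 3 each). Replicate 3 was the highest ∆set-7 library at NCU09187, at 19.7, 24.6 and 58.4 CPM, and at NCU09168, at 13.9, 15.5 and 53.3 CPM in ∆set-7 against 3.98, 1.61 and 5.62 in Wild type. NCU07210 had 31.6 ± 4.46 CPM in ∆set-7 and 10.9 ± 1.05 in Wild type, and NCU05097 had 28.0 ± 4.44 and 1.23 ± 0.168 (SD, n = 3 each). NCU17041 had 27.3 ± 6.76 and 3.58 ± 0.109 CPM (SD, n = 3 each).

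The widest separations between ∆set-7 and Wild type were at genes close to silent in the wild type. NCU07249 (chromosome V from 6081633 to 6083258, minus strand) had 0.0736, 0.129 and 0.0591 CPM in Wild type, which is 4 reads in all, and 18.9, 12.9 and 26.4 CPM in ∆set-7. Its lowest ∆set-7 value was 99.7 times its highest Wild type value. NCU05106 (chromosome VI from 3725598 to 3727005) had 3 Wild type reads, all in replicate 1, and 382 ∆set-7 reads, a ratio of 113 in CPM of the pooled reads. NCU16728 (chromosome IV from 360310 to 360701), the shortest member by exon length at 312 bases, had 2 Wild type reads and 73 in ∆set-7, a ratio of 32.4. These ratios rest on few Wild type reads and on the libraries that chose the genes, so no interval is given. No member was without a Wild type read. For NCU05097, NCU08223 and NCU05098 the lowest ∆set-7 value was 16.3, 12.8 and 8.38 times the highest Wild type value.

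Many members lay near each other along the chromosomes. With at most 2 other genes allowed between consecutive members, 29 of the 53 fell into 11 runs. In all, 14 pairs of members were immediate neighbours, and 24 members stood alone by this count. Genes left out by the rule counted as other genes, so a member beside one of them could count as alone. The same count is not given for other internal genes at these distances. The longest runs held 4 genes each. On chromosome V, NCU09966, NCU07249, NCU17041 and NCU17042 followed each other on the minus strand over 24.0 kb (6064588 to 6088614). Mean levels in ∆set-7 were 2.24, 19.4, 27.3 and 15.9 CPM, and in Wild type 0.172, 0.0872, 3.58 and 0.703 CPM. Of the genes flanking this run, NCU09965 had 0.135 CPM in Wild type and 0.251 in ∆set-7, and NCU07247 had 11.5 and 10.6 CPM.

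On chromosome III, NCU08524, NCU08523, NCU08522 and NCU08521 lay within 8.11 kb (5053625 to 5061738) on alternating strands. Their mean levels in ∆set-7 were 5.97, 4.52, 5.52 and 1.94 CPM, and in Wild type 1.82, 0.919, 0.867 and 0.219 CPM. Here the mean of ∆hH2Az was also above that of Wild type at each gene, at 6.30, 7.23, 3.64 and 1.08 CPM, and the double deletion strain was the highest of the 4 strains, at 10.8, 12.8, 6.91 and 3.66 CPM. In the run on chromosome V ∆hH2Az had 0.108, 0.402, 11.5 and 1.77 CPM, above the Wild type mean at all but NCU09966, and the double deletion strain had 4.50, 21.6, 37.9 and 14.2 CPM, the highest of the 4 strains at all but NCU17042. The flanking genes NCU08525 and NCU08797 of the chromosome III run had 0.795 and 0.288 CPM in Wild type and 1.56 and 1.55 in ∆set-7, and were not members.

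**Figure D3:**
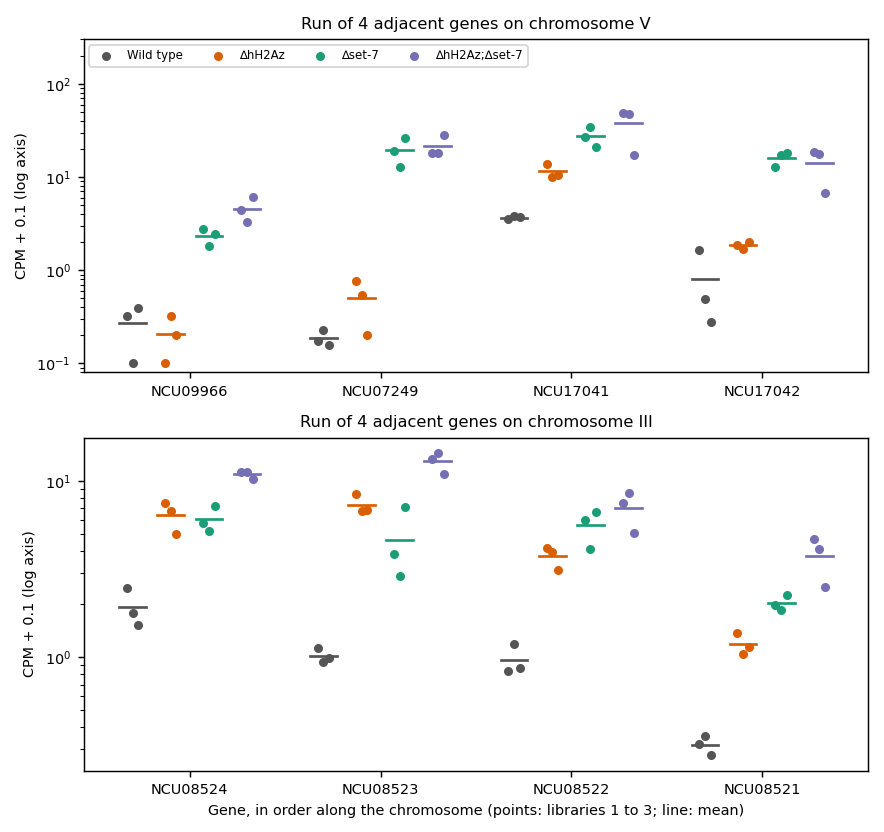
CPM + 0.1 on a log axis for the 4 adjacent genes on chromosome V (top) and the 4 on chromosome III (bottom), with 1 point per library and a line at the mean of each strain. On chromosome V the ∆hH2Az points overlap those of Wild type at NCU09966 and NCU07249 and lie above them at NCU17041 and NCU17042, and on chromosome III they lie above all Wild type points at each of the 4 genes.

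Runs of 3 genes lay on chromosome IV (NCU07623, nst-7 and NCU07626 over 11.5 kb, and NCU04917, NCU04919 and NCU04920 over 13.3 kb) and on chromosome V (NCU07230, NCU07228 and gh11-2 over 26.2 kb). In the last of these the 3 genes between members and the flanking NCU07224 did not meet the rule, with mean ∆set-7 levels of 0.501 to 1.38 CPM against 0.0872 to 0.228 CPM in Wild type. The other runs were pairs: NCU08084 with NCU08085 on chromosome I, NCU09167 with NCU09168 on III, NCU07218 with NCU07217 on V, and NCU12075 with NCU04694, NCU05106 with NCU05105 and NCU05098 with NCU05097 on VI. Immediate neighbours differed in level: in ∆set-7 NCU05097 had 28.0 CPM and NCU05098 1.71 CPM, which is 18.7 and 1.22 CPM per kilobase of exon.

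The members outside runs that are not described above are named to complete the list. They were NCU07510, NCU08233, NCU08572, NCU08569, NCU09857, NCU04701, NCU14165, NCU05920, NCU05156, NCU05086, NCU05083, NCU12050, NCU09061, NCU06861, NCU06953 and NCU09590. Their mean ∆set-7 levels ranged from 1.04 CPM at NCU08233 to 25.2 CPM at NCU05083.

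Loss of hH2Az alone was accompanied by very different levels from member to member. These values share the Wild type and ∆set-7 libraries with the choice of members and are given side by side without a test. The mean of ∆hH2Az lay above that of ∆set-7 in 16 members, between Wild type and ∆set-7 in 24, and below Wild type in 13. Over replicates 1 and 2 alone these numbers were 17, 23 and 13. Every ∆hH2Az library was above every Wild type library in 28 members, and every Wild type library was above every ∆hH2Az library in 3. The mean of the double deletion strain lay above that of ∆set-7 in 22 members, between in 28 and below Wild type in 3 (NCU09168, NCU08223 and NCU04701). Over replicates 1 and 2 alone they were 20, 29 and 4, with NCU04917 and NCU06861 below Wild type and NCU09168 no longer so. All 3 double deletion libraries were above the Wild type libraries in 41 members, in 27 of which the same held for ∆hH2Az. Shares over all genes are not given for the counts in this paragraph. The rule favours genes of low Wild type values, so these counts describe the list only.

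Relative to ∆set-7, ∆hH2Az was highest at NCU07053, NCU07073, NCU08569 and NCU08572, whose mean ∆hH2Az level was 11.3, 6.09, 6.09 and 2.94 times the ∆set-7 mean, and 16.3, 4.44, 5.11 and 2.85 times over replicates 1 and 2 alone. NCU07053 had 621, 584 and 46.1 CPM in ∆hH2Az and 40.5, 29.2 and 286 CPM in the double deletion strain. In ∆hH2Az replicates 1 and 2 this gene was the most abundant member. The members' summed level was 1064, 1050 and 428 CPM in the ∆hH2Az libraries and 443, 466 and 382 CPM without NCU07053. NCU08569 had 7.10, 7.73 and 11.7 CPM in ∆hH2Az, 8.99, 9.23 and 16.6 in the double deletion strain, 0.799, 1.82 and 1.74 in ∆set-7 and 0.118 to 0.368 in Wild type. Its levels in the 2 strains lacking hH2Az were all above those in ∆set-7.

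At the other end, NCU16728, NCU08085, NCU07249 and NCU09590 had mean ∆hH2Az levels of 0.0120, 0.0165, 0.0207 and 0.0218 times the ∆set-7 mean. Over replicates 1 and 2 alone the lowest was NCU09168, at 0.0076 times, and these 4 were at 0.0180, 0.0248, 0.0284 and 0.00805 times. NCU08085 (chromosome I from 214620 to 215734) had 2 reads over the 3 ∆hH2Az libraries, at 0.0507, 0.0552 and 0 CPM, and 0.716, 0.744 and 0.364 CPM in the double deletion strain. NCU09590 (chromosome VII from 911011 to 911974), the member farthest from a chromosome end, had 0.0507, 0 and 0.156 CPM in ∆hH2Az and 0.912, 0.682 and 0.874 CPM in the double deletion strain. These genes were at or below their Wild type levels in ∆hH2Az, apart from NCU07249, whose mean was 0.402 CPM there against 0.0872 in Wild type.

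The comparison of the double deletion strain with ∆hH2Az sets 2 strains labelled as lacking hH2Az side by side, 1 of them also labelled ∆set-7. Reads of both deleted genes remained in these libraries at the levels given above, and hH2Az differed between the strains in replicates 1 and 2 and, the other way, in replicate 3. The rule did not use the values of these 6 libraries, so the comparison was tested. The test was not free of the rule, however. Each gene's spread was estimated over all 12 libraries, including the ∆set-7 and Wild type libraries that chose the members. With edgeR's quasi-likelihood test over 8372 genes and a Benjamini-Hochberg adjusted p under 0.05, 13 of the 53 members rose, which is 24.5% of them, against 1.12% of all genes tested. No member fell, against 0.323% of all genes, and the DESeq2 Wald test and limma-voom also called 0 lower. At an unadjusted edgeR p under 0.05, 23 were higher and 1, NCU06861, was lower, against 381 higher and 480 lower of all 8372 genes. All 53 members passed the filter on low counts over the 12 libraries, but 9 passed it only through libraries outside the comparison, in which the rule makes ∆set-7 high. These include 4 of the 13 called, NCU16728, NCU08085, gh11-2 and NCU07218. On the 6 libraries compared 44 members passed, 9 of them called in the fit of 12 libraries. Fitted on those 6 alone, 5 members were called, and the common dispersion was 0.136 against 0.102 with all libraries. The median log2 fold change of the members was 0.78 and that of all genes -0.01, and the fold change was above 0 in 43 members and below 0 in 10. Every double deletion library was above every ∆hH2Az library in 21 members (5.63% of all genes) and below in 0 (5.79% of all genes).

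**Figure D4:**
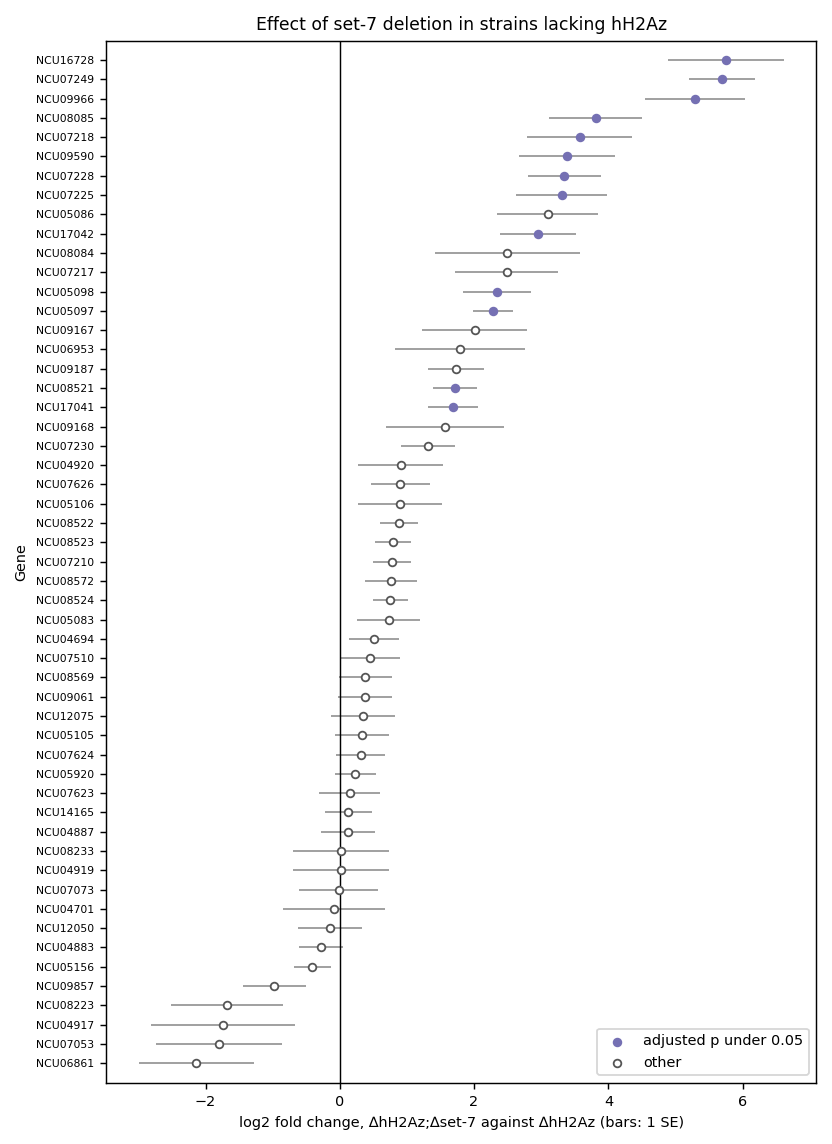
Log2 fold change of each of the 53 genes in the double deletion strain against ∆hH2Az from the edgeR fit of 12 libraries, with bars of 1 SE. Filled points are the 13 genes with an adjusted p under 0.05, all above 0; the 4 lowest genes, from NCU08223 at -1.68 to NCU06861 at -2.14, have bars of 0.836 to 1.07.

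NCU07249 had the smallest p of the members. It had 0.659, 0.442 and 0.104 CPM in ∆hH2Az and 18.2, 18.1 and 28.5 CPM in the double deletion strain, with no overlap. The log2 rise was 5.70 (SE 0.492, edgeR adjusted p 5.77e-05). Next to it, NCU09966 went from 0, 0.221 and 0.104 CPM to 4.30, 3.22 and 5.97 CPM, a rise of 5.29 (SE 0.741, edgeR adjusted p 0.00244). The other members of that run rose by 2.96 (NCU17042, SE 0.562, edgeR adjusted p 0.0207) and 1.68 (NCU17041, SE 0.372, edgeR adjusted p 0.0497). All 4 genes of the run were thus called in this fit. Of the 12 fits that left out 1 library, however, NCU17042 lost its call in 4 and NCU17041 in 10.

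NCU05097 had 2.43, 1.93 and 3.43 CPM in ∆hH2Az and 15.6, 11.5 and 11.5 CPM in the double deletion strain, a log2 rise of 2.28 (SE 0.293, edgeR adjusted p 0.00126). Its neighbour NCU05098 rose by 2.34 (SE 0.503, edgeR adjusted p 0.0425). NCU16728 had 1 read in the ∆hH2Az libraries and 64 in the double deletion libraries, a ratio of 80.8 in CPM with a 95% exact interval of 14.0 to 3240 (edgeR adjusted p 0.00409). NCU08085 had 2 reads against 28, a ratio of 17.7 with an exact interval of 4.46 to 153 (edgeR adjusted p 0.0159). Both intervals cover counting error only, not the spread between libraries. Both genes passed the filter only through libraries outside the comparison, so their p-values are not independent of the rule. The fitted fold changes of these sparsely read genes depend on the prior count.

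On chromosome V, NCU07228 rose by 3.34 (SE 0.545, edgeR adjusted p 0.00742) from 0.304, 0.552 and 0.467 CPM to 4.10, 4.83 and 4.95 CPM. gh11-2 rose by 3.31 (SE 0.677, edgeR adjusted p 0.0319) in the same run, and NCU07218 by 3.57 (SE 0.783, edgeR adjusted p 0.0478) in the next. Each of these 2 had 4 reads over the ∆hH2Az libraries. Both passed the filter only through libraries outside the comparison, so their p-values are not independent of the rule. NCU08521 was the only one called of its run on chromosome III, with 1.72 (SE 0.322, edgeR adjusted p 0.0193), although the double deletion libraries were above the ∆hH2Az libraries at all 4 genes there. NCU09590 rose by 3.39 (SE 0.716, edgeR adjusted p 0.0382). In all, 11 of the 13 called genes lay in runs, as did 29 of all 53 members. Of the 11, 4 are neighbours in the same run on chromosome V. Whether calls and runs go together was not tested.

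All 13 called genes had a mean in ∆hH2Az below that in ∆set-7, and in 6 of them it was at or below the Wild type mean. None of the 16 members whose ∆hH2Az mean exceeded the ∆set-7 mean was called, and their log2 fold changes ranged from -2.14 to 0.79. These 2 measures share the ∆hH2Az libraries, so a low level there enters both. Among the 66 genes within 200 kb of an end that met the same thresholds, 37 rose in this comparison and none fell by the same edgeR test. Over all genes these shares were 1.12% and 0.323%. At an unadjusted edgeR p under 0.05, 48 of the 66 were higher and 0 lower, against 381 and 480 of all 8372 genes. DESeq2 and limma-voom called 0 of the 66 lower. Their median log2 fold change was 2.94. The difference between these genes and the 53 was not tested.

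Of the 13 calls, 4 (NCU07249, NCU05097, NCU09966 and NCU16728) held with each of the 12 libraries left out in turn. Of these, NCU16728 passed the filter of the 12-library fit only through libraries outside the comparison. It was not tested with the 6 libraries compared, so its stability is not on a par with the others. The other 9 calls were lost without ∆hH2Az replicate 1 or 2, and all of these but NCU07228 also without other libraries. NCU07218 was lost in all 12 of these fits, NCU17041 in 10, NCU05098 in 9, and gh11-2 and NCU09590 in 8 each. NCU08085, NCU08521 and NCU17042 were lost in 4 each. The count of called members was 4 without ∆hH2Az replicate 1, 5 without replicate 2, 5 without double deletion replicate 1 and 6 without replicate 2. It was 8 without any 1 of Wild type replicate 1 or 2 or ∆set-7 replicate 1 or 2. With only the 6 libraries compared, 5 of the 44 members tested were called: NCU07249, NCU05097, NCU09966, NCU07228 and NCU17042.

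The 2 strains lacking hH2Az differed from each other in one way in replicates 1 and 2 and often in another way in replicate 3. At 23 members the ∆hH2Az replicate 3 value was nearer to double deletion replicates 1 and 2 than to its own replicates, at 23 the double deletion replicate 3 value was nearer to ∆hH2Az replicates 1 and 2, and at 14 both held. Across the 7852 genes with a mean of at least 1 CPM these shares were 55.2%, 55.5% and 21.2%. The largest departures in ∆hH2Az were at NCU07053, NCU09168 and NCU04917. There replicate 3 was 0.0768, 10.2 and 0.1001 times the mean of replicates 1 and 2, with 0.1 CPM added to both values. On the same measure the largest departures in the double deletion strain were at NCU04917, NCU06861 and NCU07053, at 15.1, 9.28 and 8.18 times. NCU04917 had 40.1, 46.7 and 4.26 CPM in ∆hH2Az and 1.69, 1.30 and 24.0 CPM in the double deletion strain. The order of the strains was reversed between the tags at this gene.

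A neighbouring gene that is not a member showed a similar departure in ∆hH2Az. NCU05104, beside NCU05105 on chromosome VI, had 35.2, 31.6 and 0.675 CPM in ∆hH2Az and 0.177 to 1.89 CPM in the other 9 libraries. NCU05105 itself had 23.0, 24.1 and 8.72 CPM in ∆hH2Az, and NCU05106, on its other side, had 6.24, 7.46 and 1.61 CPM. At all 3 genes replicate 3 was the lowest ∆hH2Az library.

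Within the tag 920 the double deletion strain counted as above or below where both its libraries were above or below both ∆hH2Az libraries. The other tag holds 1 library per strain. Members that overlapped within tag 920 are left out of the following counts. The double deletion strain was above in both tags at 25 members (11.1% of all genes tested), below in tag 920 and above in the other at 12 (16.6%), above in tag 920 and below in the other at 7 (27.4%), and below in both at 0 (12.5%). All 13 called members were above in both tags, but the calls pool both tags, so this is no separate check. In an edgeR fit of the 8 libraries tagged 920 alone, 28 members rose (12.6% of all genes) and 10 fell (16.8% of all genes), with a median log2 fold change of 0.93. All 10 that fell were above in the other tag, as were 22 of the 28 that rose. Another alternative, chosen after seeing the data, left out both replicate 3 libraries of the comparison. In it 20 members rose and 7 fell, and 1088 of all 8460 genes tested were called in either direction. Shares over all genes by direction are not given for that fit. Of the 13 calls NCU07218 was lost there (edgeR adjusted p 0.0622). All 13 calls of the fit of 12 libraries held in tag 920 alone. That fit reuses libraries that made the calls and called 2478 of all 8414 genes tested, so it is no separate check either.

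**Figure D5:**
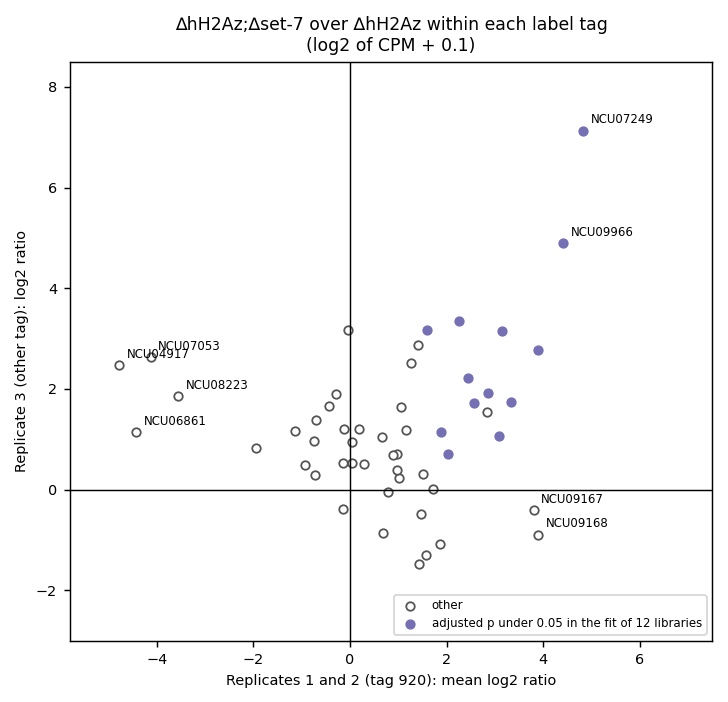
Log2 ratio of the double deletion strain over ∆hH2Az for the 53 genes, as the mean over replicates 1 and 2 (tag 920, horizontal) and in replicate 3 (the other tag, vertical), both on CPM + 0.1; filled points are the 13 genes called in the fit of 12 libraries. The filled points lie in the upper right quadrant, while NCU07053, NCU04917, NCU06861 and NCU08223 lie at upper left and NCU09167 and NCU09168 at lower right; the lower left quadrant is almost empty.

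Other genes of the pathway and of mycelial biology gave few calls. Of 7 genes of lysine 27 methylation and H2A.Z deposition, set-7 itself was the only one called: it fell by 1.35 on the log2 scale in ∆set-7 against Wild type (SE 0.283, edgeR adjusted p 0.0457) and by 1.37 in the double deletion strain against ∆hH2Az (SE 0.280, edgeR adjusted p 0.0319). Of all genes, 1.03% were called in the first comparison. eed, a core subunit of PRC2, had 2.79 CPM in Wild type, 2.50 in ∆set-7, 0.367 in ∆hH2Az and 0.543 in the double deletion strain, and suz12, another, had 7.30, 10.8, 11.5 and 16.7 CPM. Neither was called in these 2 comparisons (eed log2 fold change -0.21 and 0.52, suz12 0.52 and 0.51). Of the other lists, 7 of 9 further chromatin genes, 10 of 10 conidiation genes, 10 of 10 mating and sexual development genes and 6 of 8 genes of growing hyphae matched the table, and 7, 9, 9 and 6 were tested. edgeR called 0 of these 31 in either comparison, with 1 and 5 at an unadjusted p under 0.05. The DESeq2 Wald test called 2 in the second comparison, csp-1 (NCU02713) and eas (NCU08457), both conidiation genes, and limma-voom called 0. None of these genes is a member. Their median log2 fold changes lay between -0.17 and 0.11 in ∆set-7 against Wild type and between -0.25 and 0.16 in the double deletion strain against ∆hH2Az.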

How the data were processed

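RNA from mycelium was sequenced from TruSeq stranded mRNA libraries, per the labels' protocols. The deposited table holds whole-number read counts per gene, which per the file headers the authors obtained by running featureCounts 1.6.2 on NC12 exons with no option for strand, multiple alignments or overlapping genes set. Which aligner was used is not given in the sources. Chromosome ends were taken as 0 and the last annotated end. Symbols came from RefSeq, to which 10397 of 10398 genes matched; eed and suz12 rest on prior knowledge of their loci.

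CPM is the count divided by the library total. Tests used edgeR 4.0.16 (R 4.3.3): filterByExpr by strain (8372 genes), TMM scaling, 1 coefficient per strain over 12 libraries, and the robust quasi-likelihood F-test, 2-sided, with Benjamini-Hochberg adjustment at 0.05. The SE is the absolute log2 fold change over the root of F. The steps were tested on simulated data. Alternatives used DESeq2 1.42.0, limma 3.58.1, other scalings, filters, blocks and libraries. No 2 replicates agreed within sampling noise (chi-square per gene 25.5 to 351).

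The members and lists were chosen with earlier results of these data known. Members named with full values were those of highest ∆set-7 level (8), highest ratio (6), smallest p in the tested comparison (10), nearest the ratio threshold (3 on each side), highest and lowest ∆hH2Az level relative to ∆set-7 (4 each), largest departure of replicate 3 (3 per strain), those in runs and those with a symbol; the remaining called members are named as well.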

Additional observations from a re-analysis of the deposited data

Results flagged for a closer look

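At 19 members the double deletion strain lay on opposite sides of ∆hH2Az in replicates 1 and 2 (tag 920) and in replicate 3 (the other tag). The difference between tags was not tested, since the other tag holds 1 library per strain, and the meaning of the tags and the identity of the replicate 3 libraries are not given by the labels. Such reversals were also frequent among all genes tested, at 16.6% in one direction and 27.4% in the other. Values are log2 ratios of CPM + 0.1 in the double deletion strain over ∆hH2Az.

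Of these, 12 were below in tag 920 and above in replicate 3. The replicate 3 ratios were 2.63 at NCU07053, 2.47 at NCU04917, 1.86 at NCU08223 and 1.14 at NCU06861, where the tag 920 ratios were -4.13, -4.77, -3.55 and -4.42. They were 1.66 at NCU07623, 1.21 at nst-7 (NCU07624), 1.37 at NCU04887, 0.82 at NCU09857, 0.50 at NCU07073, 0.28 at NCU05156, 1.89 at NCU05105 and 1.16 at NCU12050. For these 8 the tag 920 ratios lay between -1.95 and -0.13.

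The other 7 were above in tag 920 and below in replicate 3. The replicate 3 ratios were -0.41 at NCU09167 and -0.89 at NCU09168, where the tag 920 ratios were 3.80 and 3.90. They were -0.49 at NCU07626, -1.49 at NCU04919, -1.31 at NCU12075, -0.0576 at NCU04694 and -1.09 at NCU05083, with tag 920 ratios of 0.79 to 1.87. None of the 19 is among the 13 called members.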

How the results depend on the processing

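With upper-quartile scaling, DESeq2 size factors, limma-voom, every gene with a read kept, the replicate block or the label tag as a covariate, 9 to 13 members were called higher and the median log2 change stayed within 0.75 to 0.82. The replicate block gave 9 members and 102 genes called, with a median of 0.77, but same-numbered libraries of the 2 strains correlated at 0.16, -0.22 and -0.10, so the numbers do not pair the samples. A minimum mean of 5 CPM kept 26 members and gave 3 members and 77 genes called, with a median of 0.40; fewer members were tested. The DESeq2 Wald test called 16 members and 292 genes. The 6 libraries compared gave 5 of 44 members tested and 48 genes, the libraries tagged 920 gave 28 and 2478, and leaving out both replicate 3 libraries, chosen after seeing the data, gave 20 and 1088 with a median of 0.93. Leaving out each library in turn gave 4 to 17 members, 62 to 473 genes and medians of 0.71 to 0.91. The cause of these shifts was not tested, but the common dispersion was 0.102 with all libraries and 0.0178 with tag 920 alone. No member's called change reversed sign, and of 286 alternative values for the 13 called members 75 missed the threshold.

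The rule took 110 genes at a ratio of 1.5, 25 at a ratio of 3, 25 at a mean of 5 CPM, 48 (45 of them members) on TMM-scaled CPM, 63 and 37 at distances of 100 and 300 kb, and 58 to 75 without 1 library. Low Wild type counts limit the ratios of the least expressed members.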
